A study of Mus musculus with 16 samples.

Results

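Transfer RNAs carry amino acids to the ribosome and read codons through their anticodon. The nuclear tRNA-Gly genes with a GCC anticodon make the tRNA that reads the glycine codons ending in C or U, and those with a TCC anticodon make the tRNA that reads the glycine codon ending in A. Transcripts that share an anticodon but differ elsewhere in their sequence are called isodecoders, and each has a row of its own in the deposited counts. The members described here were the rows named tRNA-Gly-GCC or tRNA-Gly-TCC, with rows of mitochondrial tRNAs and rows named tRX left out. There were 8 of them, GCC-1 to GCC-6 and TCC-1 and TCC-2, among the 819 rows of the table for mouse embryonic fibroblasts (MEFs) and the 821 rows of the table for hearts. The RefSeq annotation of GRCm38.p6 lists 14 mouse genes for tRNA-Gly with the GCC anticodon on 7 chromosomes, each 71 bases long, and 7 for the TCC anticodon on 3 chromosomes, each 72 bases long. Row names could not be matched to single RefSeq genes, so no position or sequence is given. Because these lengths are nearly equal, levels are set side by side without a length correction.

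The study asked what base editing of a disease-causing tRNA-Ala mutation in mitochondrial DNA does to tRNAs. The MEF libraries came from the lines Cl_1, Cl_2, Cl_3 and Ctrl_1, with 2 cell passages each. The labels give neither the genotype of these lines nor the meaning of Cl and Ctrl. The 8 hearts all came from mice of the m.5024T model, which carries the mitochondrial tRNA-Ala mutation, the control hearts included. Of these mice, 4 carried the AAV9-DdCBE label, that of a mitochondrial cytosine base editor delivered by an adeno-associated virus vector: mice 17 and 18 (labelled 10X), mouse 25 (5X) and mouse 26 (2X). The other 4 carried the AAV9-GFP label, with green fluorescent protein in place of the editor: mice 5 and 6 (5X) and mice 14 and 19 (3X). The X labels are not explained, and ages are not given. The p-values of the main MEF tests measure the spread between passages of lines. Permutation tests of shares take each library as a unit instead. The control side of every MEF comparison is 1 line. The tables hold tRNA rows alone, so the labelled cell type and tissue could not be checked against marker genes.

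Depth ran from 1473330 to 4375975 counts over MEF libraries and from 1540287 to 3037178 over heart libraries. Mitochondrial tRNAs took 2.54% ± 0.298 of counts in the Cl lines (SD, n = 6) and 3.57% ± 0.234 in Ctrl_1 (SD, n = 2). In the hearts they took 45.6% ± 9.87 with AAV9-DdCBE and 40.3% ± 3.02 with AAV9-GFP (SD, n = 4 each), and mouse 17 stood apart at 59.9%. Mitochondrial tRNA-Ala, the gene of the study, had 104 to 287 CPM (counts scaled to a common library size) in the Cl lines against 456 and 588 in Ctrl_1. In the hearts it had 1773 to 6623 CPM with AAV9-DdCBE against 852 to 2086 with AAV9-GFP. All CPM values except the limits for a count of 0 are scaled by TMM, a method that sets the typical row equal between libraries. Isodecoder levels use the factors of the table of rows, and anticodon totals use those of the table of counts summed per anticodon.

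The GCC pool consisted almost entirely of 3 isodecoders, and the TCC pool of 1. In the MEFs, GCC-2 supplied 83.2% to 87.0% of GCC counts, GCC-4 9.04% to 9.55%, GCC-1 3.40% to 7.18% and GCC-3 0.490% to 0.603%. In the hearts, GCC-2 supplied 49.6% to 70.4%, GCC-1 22.7% to 45.2%, GCC-4 5.01% to 6.55% and GCC-3 0.228% to 0.398%. GCC-1 thus had the lowest share among the 3 main GCC rows in every MEF library and the middle share in every heart library. The MEF and heart libraries lie in separate tables, so tissue and table cannot be told apart, and this difference was not tested. TCC-1 supplied 99.955% to 99.983% of TCC counts over all 16 libraries.

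The remaining members were at or near the lower end of the counts. TCC-2 had 7 to 26 counts in the MEF libraries and 3 to 10 in the hearts. GCC-5 had 0 counts in all 16 libraries, and GCC-6 had 0 in 15 of them and 2 counts in AAV9-GFP mouse 14. A count of 0 allows up to 3 counts per library, or 0.686 to 2.04 CPM in a MEF library and 0.988 to 1.95 CPM in a heart. These limits were taken on library totals without TMM factors. After the filter on low counts, 6 members were tested in the MEFs (GCC-1 to GCC-4, TCC-1 and TCC-2) and 5 in the hearts, where TCC-2 did not pass.

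By level, GCC ranked in the upper part of the nuclear anticodons in both tables, and TCC did so in the MEFs and lay near the middle in the hearts. Of 57 nuclear anticodons, GCC ranked 8 to 14 over the MEF libraries and 8 to 12 over the hearts, and TCC ranked 13 to 20 and 22 to 30. Among all nuclear rows of a library, GCC-2 held ranks 4 to 11 for MEFs and 11 to 18 for hearts, and TCC-1 ranked 7 to 10 and 12 to 19. GCC-1 had the widest shift of rank, 87 to 109 of 265 rows in the MEFs and 21 to 48 of 267 rows in the hearts. All 8 members together took 4.97% to 5.64% of nuclear tRNA counts per MEF library and 4.50% to 5.33% per heart.

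**Figure D1:**
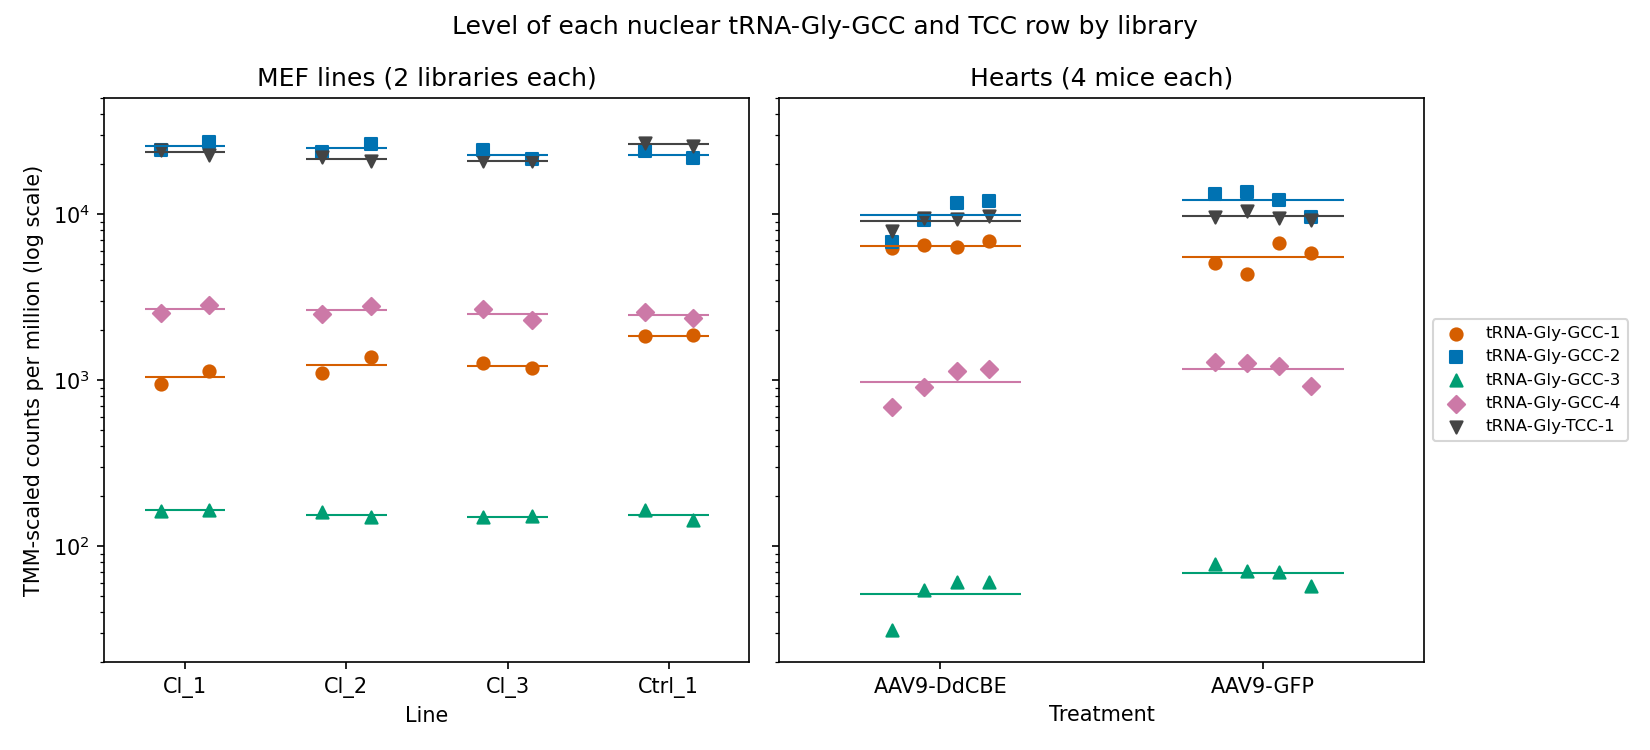
TMM-scaled CPM (vertical log axis) of the 5 most abundant tRNA-Gly-GCC and tRNA-Gly-TCC rows in each of the 16 libraries, by MEF line and by heart treatment; points are libraries and horizontal lines group means. GCC-2 and TCC-1 lie highest in every MEF line, and GCC-1 lies at 948 to 1871 CPM in MEF libraries and at 4386 to 6861 CPM in heart libraries.

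The rows of the GCC pool did not all move together from library to library. For each 100 counts of GCC-2, GCC-4 had 10.4 to 11.2 counts in the MEFs (coefficient of variation 2.55% over 8 libraries) and 9.30 to 10.1 in the hearts (2.49%). GCC-3 had 0.570 to 0.705 counts per 100 of GCC-2 in MEF libraries (7.28%) and 0.460 to 0.604 in heart libraries (9.44%). GCC-4 therefore followed GCC-2 closely within each table. GCC-1 had 3.91 to 8.63 counts per 100 of GCC-2 in MEF libraries (29.9%) and 32.2 to 91.1 in heart libraries (31.6%). Over the 16 libraries its ratio to GCC-2 spanned 23.3-fold. How reads shared by near-identical rows were assigned is not given in the sources used here, and its part in these ratios was not tested.

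**Figure D2:**
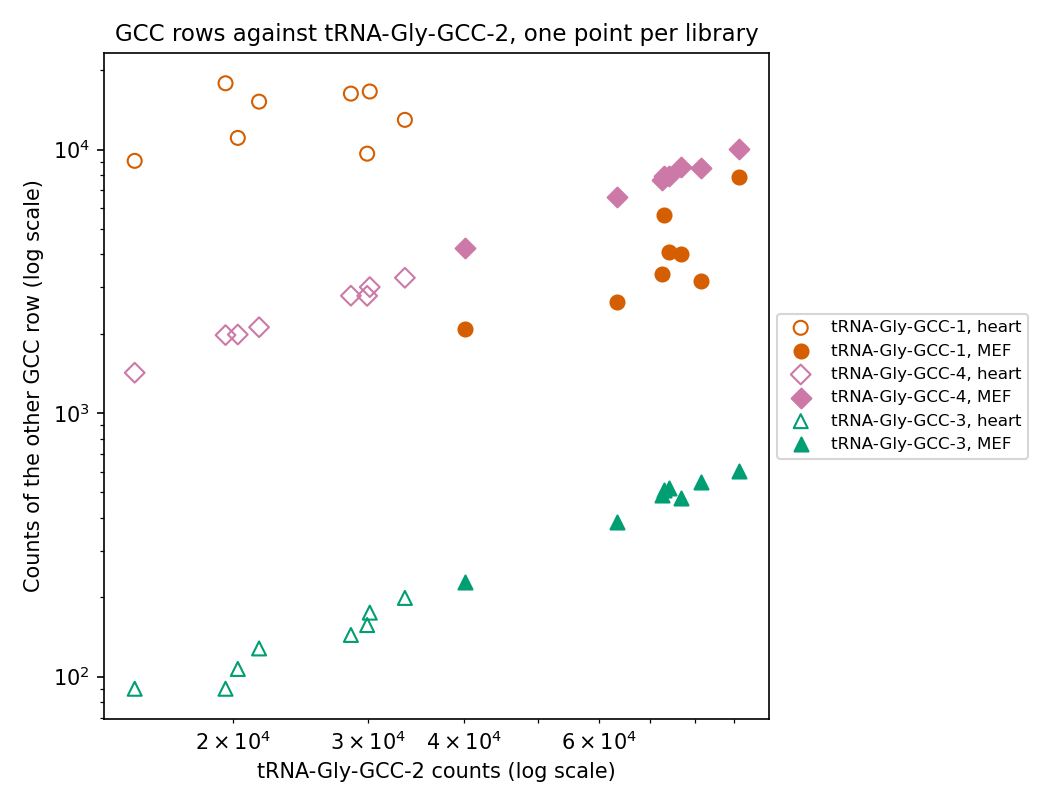
Counts of GCC-1, GCC-3 and GCC-4 (vertical log axis) against counts of GCC-2 (horizontal log axis), 1 point per library, with filled symbols for MEFs and open symbols for hearts. GCC-4 and GCC-3 rise with GCC-2 along narrow bands, whereas GCC-1 lies above GCC-4 in every heart and below it in every MEF library.

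The comparison of the Cl lines with Ctrl_1 asked whether the glycine tRNAs differ between these fibroblast lines. GCC-1, a minor GCC isodecoder in MEFs, was lower in the Cl lines. It had 948 and 1133 CPM in Cl_1, 1102 and 1377 in Cl_2 and 1267 and 1182 in Cl_3, against 1840 and 1871 in Ctrl_1. The 6 Cl libraries all lay below both Ctrl_1 libraries, with means of 1168 ± 147 CPM (SD, n = 6) and 1856 ± 22.0 CPM (SD, n = 2). The mean of the Cl lines was 1.59-fold lower (log2 change -0.67, SE 0.11), with an adjusted p of 0.00235 by edgeR's quasi-likelihood test with Benjamini-Hochberg adjustment over all 201 rows.

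TCC-1, which makes up nearly the whole TCC pool, was also lower in the Cl lines on the scale of the rows. It had 24419 and 22654 CPM in Cl_1, 22145 and 20775 in Cl_2 and 20896 and 20752 in Cl_3, against 26924 and 25741 in Ctrl_1. The groups did not overlap, and the means were 21940 ± 1453 CPM in the Cl lines (SD, n = 6) and 26333 ± 837 CPM in Ctrl_1 (SD, n = 2). The mean of the Cl lines was 1.20-fold lower (log2 change -0.27, SE 0.05, edgeR adjusted p = 0.00408). Without the first Ctrl_1 library the change was -0.23 and edgeR's adjusted p 0.0503.

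The 3 other GCC rows and TCC-2 did not pass the test. GCC-2, the main GCC isodecoder, had 24260 and 27319 CPM in Cl_1, 23710 and 26424 in Cl_2 and 24152 and 21461 in Cl_3, against 23862 and 21683 in Ctrl_1. The Cl and Ctrl_1 libraries overlapped, and the log2 change was 0.11 (SE 0.08, 95% interval -0.05 to 0.26, edgeR adjusted p = 0.306). Intervals of log2 changes use a normal quantile, so they are narrower than the test itself, with so few libraries, would give. GCC-4 had 2310 to 2850 CPM in the Cl lines against 2379 and 2586 in Ctrl_1 (log2 change 0.07, edgeR adjusted p = 0.559). GCC-3 had 150 to 166 CPM against 143 and 166 (log2 change 0.02, edgeR adjusted p = 0.910). TCC-2 had 4.57 to 7.74 CPM against 5.70 and 7.52 (log2 change -0.21, SE 0.21, edgeR adjusted p = 0.561).

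In this comparison 2 of the 6 members tested were lower and 0 were higher, where 48.3% of all 201 rows passed the test (22.9% higher and 25.4% lower). The members called lower were thus 2 of 6 beside 25.4% of all rows. How many of all rows or anticodons also separated the Cl libraries from Ctrl_1 was not counted. The median log2 change was -0.10 over the 6 members, 0.06 over the 175 nuclear rows tested and -0.00080 over all 201. With the libraries of each line summed, so that 3 Cl lines stood against 1 Ctrl_1 line, edgeR's adjusted p was 0.190 for GCC-1 (log2 change -0.70) and 0.340 for TCC-1 (-0.25). Mitochondrial tRNA-Ala and the mitochondrial share of counts were lower in the same Cl libraries, and their part in these differences was not tested. In bulk samples, fewer cells of a type and less RNA per cell cannot be told apart.

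GCC-1 was lower in each Cl line taken alone. In Cl_1 it had a log2 change of -0.83 and an adjusted p of 0.00359 by edgeR. It was likewise lower in Cl_2 (-0.58, adjusted p = 0.0131 by edgeR) and Cl_3 (-0.60, adjusted p = 0.0103 by edgeR), and the SE was 0.14 in each line. TCC-1 was lower in Cl_2 (-0.30, adjusted p = 0.00819 by edgeR) and Cl_3 (-0.34, adjusted p = 0.00400 by edgeR). Its change in Cl_1 was -0.16 (adjusted p = 0.0904 by edgeR), with an SE of 0.06 in each line. These 3 comparisons share the Ctrl_1 libraries, so they do not repeat each other independently. The counts were 1 of 6 members lower in Cl_1, 2 of 6 in Cl_2 and 2 of 6 in Cl_3, where 33.8%, 46.3% and 50.7% of all rows passed in those lines and 18.9%, 20.4% and 24.4% were lower. No other member passed in any line, and log2 changes of GCC-2 were 0.18, 0.14 and 0.0022.

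Some of the calls in single lines rested on 1 library. GCC-1 in Cl_2 no longer passed without the first Ctrl_1 library (log2 change -0.60, edgeR adjusted p = 0.0550), the second Ctrl_1 library (-0.57, edgeR adjusted p = 0.0511) or the first Cl_2 library (-0.43, edgeR adjusted p = 0.0761). GCC-1 in Cl_3 no longer passed without the second Cl_3 library (-0.55, edgeR adjusted p = 0.0661), and TCC-1 in Cl_2 without the first Ctrl_1 library (-0.26, edgeR adjusted p = 0.0563). TCC-1 in Cl_1 passed without the first Cl_1 library (-0.22, edgeR adjusted p = 0.0426). GCC-1 in the mean of the lines passed whichever library was left out, with log2 changes of -0.73 to -0.62. Among the 3 Cl lines themselves, edgeR's F test called 0 of 6 members, with 0 at an unadjusted p under 0.05 and 0 by DESeq2, where 24.4% of all rows differed. Adjusted p-values in that edgeR test were 0.339 for GCC-1 and 0.136 for TCC-1.

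The anticodon totals, which do not depend on how reads were split between rows of 1 anticodon, did not pass the test in the MEFs. The GCC total was 27968 and 30952 CPM in Cl_1, 28196 and 30964 in Cl_2 and 29915 and 26715 in Cl_3, against 26499 and 24398 in Ctrl_1. All 6 Cl libraries lay above both Ctrl_1 libraries (29118 ± 1752 CPM, n = 6, and 25448 ± 1486 CPM, n = 2, SD). How many other anticodons separated these libraries was not counted. The log2 change of the GCC total was 0.19 (SE 0.07, 95% interval 0.05 to 0.34), with an edgeR adjusted p of 0.0529 over 70 anticodons. The 48 nuclear anticodons tested had a median log2 change of 0.09 in the same fit. The TCC total was 20938 to 24489 CPM in the Cl lines against 24089 and 25082 in Ctrl_1, with 1 Cl_1 library inside the Ctrl_1 range. Its means were 22442 ± 1165 CPM in the Cl lines (SD, n = 6) and 24585 ± 702 CPM in Ctrl_1 (SD, n = 2). The log2 change was -0.13 (SE 0.05, 95% interval -0.24 to -0.03, edgeR adjusted p = 0.0727).

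Of the 2 totals 0 were called, though both had an unadjusted p under 0.05, and 42.9% of all 70 anticodons passed. By DESeq2 the GCC total passed (log2 change 0.18, adjusted p = 0.0352). Calls were also gained by edgeR without 1 library, for the GCC total without the first Cl_1 library (0.22, adjusted p = 0.0438) or the second Cl_3 library (0.22, adjusted p = 0.0443). The TCC total gained one without the first Cl_1 library (-0.16, edgeR adjusted p = 0.0371) or the first Cl_2 library (-0.18, edgeR adjusted p = 0.0328). In single lines 0 of 2 totals passed by DESeq2 or by edgeR with TMM on the anticodon sums, with GCC changes of 0.21, 0.22 and 0.15 and TCC changes of -0.07, -0.17 and -0.15 in Cl_1, Cl_2 and Cl_3. The TCC total passed with the factors of the rows in Cl_2 (-0.30, edgeR adjusted p = 0.00540) and Cl_3 (-0.34, edgeR adjusted p = 0.00337), as it did there with library totals and with nuclear rows alone. The shares of anticodons called there were 24.3%, 35.7% and 25.7%. Among the Cl lines 0 of 2 totals differed, where 1.43% of anticodons did.

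TCC-1 and the TCC total count almost the same reads, yet the first was called and the second was not. The fits differ in their scaling factors. TMM on the rows gave the Cl lines a mean factor of 1.02 and Ctrl_1 one of 0.948, whereas TMM on the anticodon sums gave the Cl lines 0.995 and Ctrl_1 1.02. With the factors of the anticodon sums, TCC-1 had a log2 change of -0.13 (edgeR adjusted p = 0.0938), GCC-1 stayed lower (-0.54, edgeR adjusted p = 0.00452) and GCC-2 was higher (0.24, edgeR adjusted p = 0.0306). With the factors of the rows, the TCC total had a change of -0.27 (edgeR adjusted p = 0.00217). Under the exchanged factors the median log2 change of nuclear rows was 0.19, against 0.06 on the scale of the rows.

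**Figure D3:**
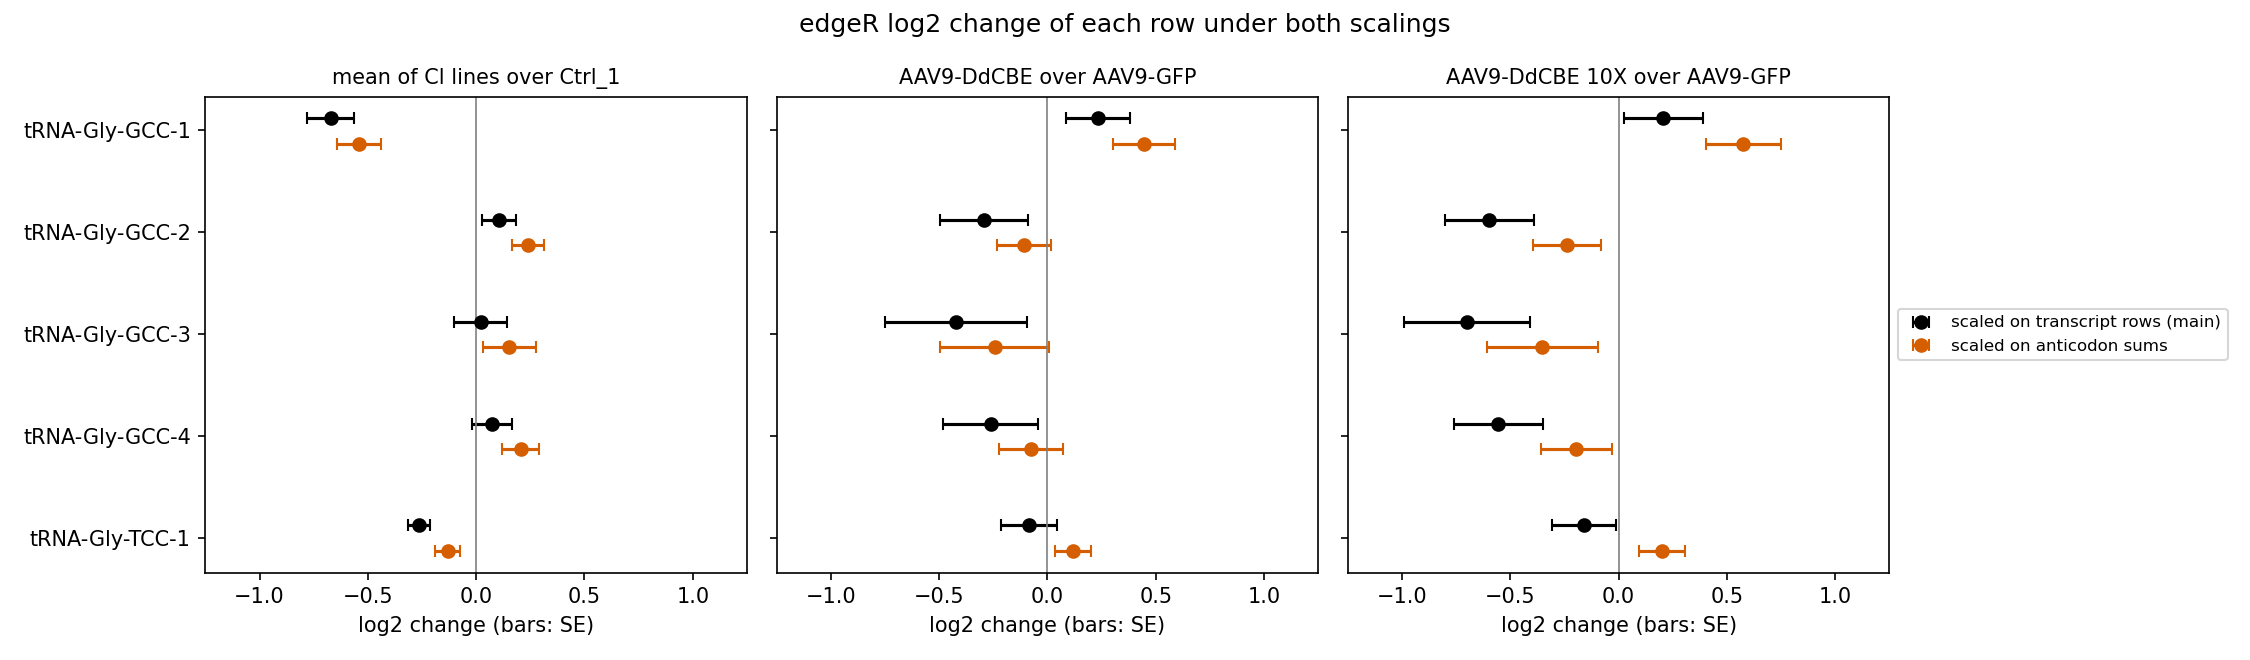
Log2 changes (horizontal axis, points with SE bars) of 5 rows for the mean of the Cl lines over Ctrl_1, all AAV9-DdCBE hearts over AAV9-GFP and the 10X hearts over AAV9-GFP, scaled on the rows (black) and on the anticodon sums (orange). Each orange point lies to the right of its black one, and TCC-1 changes side of 0 in both heart comparisons.

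Shares within the glycine pool do not depend on library scaling. GCC counts made up 53.3% to 59.7% of GCC plus TCC counts in the Cl libraries against 50.3% and 51.4% in Ctrl_1. The groups did not overlap, and their means were 56.5% ± 2.37 (SD, n = 6) and 50.8% ± 0.746 (SD, n = 2). Whether shares within other tRNA pools also separated these libraries was not counted. The difference of 5.61 percentage points had p = 0.0357 by an exact two-sided permutation test over 28 splits. That is the smallest p this design can give, and it was 0.0952 after adjustment over the 8 share tests. The test took libraries as units, so passages of the same line counted as independent.

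GCC-1 formed 3.40% and 3.60% of GCC counts in Cl_1, 4.01% and 4.48% in Cl_2 and 4.48% and 4.71% in Cl_3, against 6.47% and 7.18% in Ctrl_1. Again every Cl library lay below both Ctrl_1 libraries, and the means were 4.11% ± 0.531 in the Cl lines (SD, n = 6) and 6.82% ± 0.501 in Ctrl_1 (SD, n = 2). The difference of -2.71 points also had the smallest exact permutation p, 0.0357, adjusted to 0.0952. GCC-2 formed 86.2% ± 0.645 of GCC counts in the Cl lines (SD, n = 6) and 83.5% ± 0.502 in Ctrl_1 (SD, n = 2), a difference of 2.65 points with the same exact permutation p-values. With GCC-4 steady at 9.04% to 9.55%, the GCC-2 share is nearly the complement of the GCC-1 share and not a separate result. No share test passed after adjustment. The 95% Wilson intervals of the GCC-1 share, which cover counting error only, were narrower than these differences, for example 6.31% to 6.63% in the first Ctrl_1 library. The share of GCC-1 was tested after its values were seen.

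**Figure D4:**
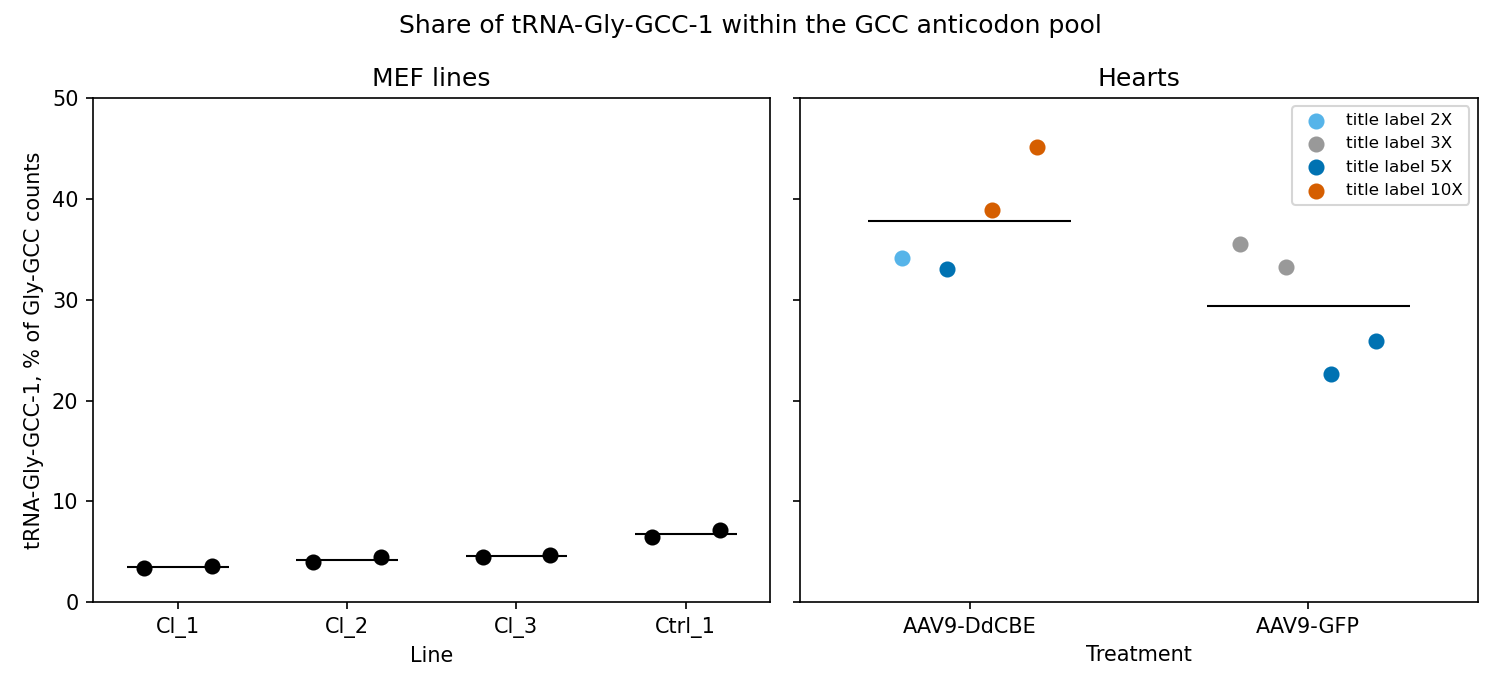
GCC-1 as a percentage of all tRNA-Gly-GCC counts (vertical axis) in each library, by MEF line and by heart treatment; points are libraries, coloured in the hearts by X label, and horizontal lines group means. The 6 Cl libraries lie at 3.40% to 4.71% against 6.47% and 7.18% in Ctrl_1, and the 4 AAV9-DdCBE hearts at 33.1% to 45.2% overlap the 4 AAV9-GFP hearts at 22.7% to 35.6%.

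In the hearts the comparison asked whether the glycine tRNAs differ between AAV9-DdCBE and AAV9-GFP hearts of the m.5024T model. GCC-1 had 6212 CPM in mouse 17, 6484 in mouse 18, 6317 in mouse 25 and 6861 in mouse 26 with AAV9-DdCBE. With AAV9-GFP it had 5099 CPM in mouse 6, 4386 in mouse 5, 6678 in mouse 19 and 5840 in mouse 14. The groups overlapped, with means of 6469 ± 285 CPM and 5500 ± 984 CPM (SD, n = 4 each). The log2 change was 0.23 (SE 0.15, 95% interval -0.06 to 0.53, edgeR adjusted p = 0.339 over 180 rows).

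GCC-2 had 6816 CPM in mouse 17, 9236 in mouse 18, 11588 in mouse 25 and 12002 in mouse 26 with AAV9-DdCBE. With AAV9-GFP it had 13190 CPM in mouse 6, 13611 in mouse 5, 12136 in mouse 19 and 9608 in mouse 14. The 2 hearts labelled 10X were the lowest of all 8. The means were 9910 ± 2396 CPM with AAV9-DdCBE and 12136 ± 1796 CPM with AAV9-GFP (SD, n = 4 each), and the log2 change was -0.29 (SE 0.20, 95% interval -0.69 to 0.10, edgeR adjusted p = 0.350). GCC-3 had 31.3 to 61.0 CPM with AAV9-DdCBE against 58.0 to 78.3 with AAV9-GFP (log2 change -0.42, SE 0.33, edgeR adjusted p = 0.380). GCC-4 had 688 to 1174 CPM against 917 to 1283 (log2 change -0.26, SE 0.22, edgeR adjusted p = 0.414).

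TCC-1 had 7863 CPM in mouse 17, 9473 in mouse 18, 9400 in mouse 25 and 9752 in mouse 26 with AAV9-DdCBE. With AAV9-GFP it had 9610 CPM in mouse 6, 10405 in mouse 5, 9428 in mouse 19 and 9276 in mouse 14. The groups overlapped and averaged 9122 ± 853 CPM and 9680 ± 502 CPM (SD, n = 4 each), and the log2 change of -0.09 had an SE of 0.13 and an edgeR adjusted p of 0.660. Its sign was not settled, since DESeq2, library totals, nuclear rows alone, no filter and the factors of the anticodon sums gave 0.0062 to 0.12. By edgeR 0 of 5 members were called, with 0 members at an unadjusted p under 0.05, and 0% of all 180 rows were called, of which 35 had an unadjusted p under 0.05. DESeq2 called 27 of the 180 rows and none of the 5 members. The median log2 change was -0.26 over the 5 members and -0.14 over the 158 nuclear rows tested.

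Both totals overlapped between the treatments. The GCC total was 17838 CPM in mouse 17, 18506 in mouse 18, 18725 in mouse 25 and 18974 in mouse 26, against 17956 in mouse 6, 17925 in mouse 5, 18236 in mouse 19 and 16033 in mouse 14. The GCC total averaged 18510 ± 487 CPM with AAV9-DdCBE and 17538 ± 1013 CPM with AAV9-GFP (SD, n = 4 each). The log2 change was 0.08 (SE 0.07, 95% interval -0.05 to 0.21, edgeR adjusted p = 0.837). The TCC total was 9209 to 10516 CPM with AAV9-DdCBE against 8560 to 9648 with AAV9-GFP, and its log2 change was 0.12 (SE 0.07, 95% interval -0.01 to 0.25, edgeR adjusted p = 0.806). Both signs turned with the factors of the rows, to -0.12 for GCC and -0.086 for TCC. By edgeR 0% of anticodons were called, with 3 of 70 at an unadjusted p under 0.05, and DESeq2 called 2 of 70 and neither of these totals. As a share of nuclear tRNA counts, the 8 members together took 5.06% ± 0.216 with AAV9-DdCBE and 4.64% ± 0.105 with AAV9-GFP (SD, n = 4 each). The lowest AAV9-DdCBE heart, at 4.82%, lay just above the highest AAV9-GFP heart, at 4.76%. This difference was not tested, and how many other anticodons also separated the treatments was not counted.

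Split by X label, GCC-2 and GCC-4 were lower in the hearts labelled 10X. GCC-2 was 1.51-fold lower than in AAV9-GFP hearts (log2 change -0.60, SE 0.20, edgeR adjusted p = 0.0399). GCC-4 was 1.47-fold lower (-0.56, SE 0.20, edgeR adjusted p = 0.0482), and GCC-3 changed by -0.70 (SE 0.29, edgeR adjusted p = 0.0687). GCC-1 and TCC-1 did not pass, at 0.21 (SE 0.18, edgeR adjusted p = 0.347) and -0.16 (SE 0.15, edgeR adjusted p = 0.378). Here 2 of 5 members were lower and 0 higher, where 51.7% of all rows passed and 27.8% were lower. The nuclear rows tested had a median log2 change of -0.31, so the members lay on a background that was itself below 0. This split was chosen because the 10X hearts stood apart in earlier results of these data. Its p-values are therefore not an independent test. No AAV9-GFP heart was labelled 10X, so label and treatment cannot be told apart here.

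The calls in the 10X hearts depended on scaling and on single libraries. With nuclear rows alone kept for scaling, testing and adjustment, their median log2 change was -0.04. In that fit GCC-2 had a log2 change of -0.33 (edgeR adjusted p = 0.136) and GCC-1 was higher (0.49, edgeR adjusted p = 0.0427). With the factors of the anticodon sums, GCC-2 changed by -0.24 (edgeR adjusted p = 0.278), GCC-1 was higher (0.57, edgeR adjusted p = 0.0367) and TCC-1 turned to 0.20 (edgeR adjusted p = 0.191). GCC-2 and GCC-4 also lost their calls when mouse 5, 6, 17, 19, 25 or 26 was left out, with changes of -0.60 to -0.36 for GCC-2 and -0.54 to -0.33 for GCC-4. In the same hearts mitochondrial tRNAs took 59.9% and 44.5% of counts, and the part of that share in the row levels was not tested. The totals in the 10X hearts changed by 0.05 for GCC (SE 0.09, edgeR adjusted p = 0.859) and 0.20 for TCC (SE 0.07, edgeR adjusted p = 0.188), and 0% of anticodons were called by edgeR, with 15 of 70 at an unadjusted p under 0.05. DESeq2 called 13 of 70 there and neither glycine total. The sign of both totals turned with the factors of the rows, to -0.31 for GCC and -0.16 for TCC, and with library totals, to -0.20 and -0.051. That of GCC also turned without mouse 5 (-0.032) or mouse 6 (-0.022).

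The labels 5X and 2X each stood for 1 AAV9-DdCBE heart, so their changes are given as values. GCC-1 had a log2 change of 0.20 at 5X and 0.32 at 2X, and GCC-2 one of -0.07 at 5X and -0.02 at 2X. Of all 180 rows edgeR called 0.556% at 5X and 0% at 2X. Differences between the X labels were not tested.

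Within the GCC pool of the hearts, GCC-1 formed 45.2% in mouse 17, 38.9% in mouse 18, 33.1% in mouse 25 and 34.1% in mouse 26. With AAV9-GFP it formed 25.9% in mouse 6, 22.7% in mouse 5, 33.2% in mouse 19 and 35.6% in mouse 14. The 10X hearts were the highest of all 8 and the AAV9-GFP hearts labelled 5X the lowest, while the other 4 lay together at 33.1% to 35.6%. Among hearts labelled 5X, the share was 33.1% with AAV9-DdCBE against 25.9% and 22.7% with AAV9-GFP. The means were 37.8% ± 5.52 with AAV9-DdCBE and 29.4% ± 6.04 with AAV9-GFP (SD, n = 4 each), a difference of 8.46 points with an exact two-sided permutation p of 0.143 (0.229 adjusted, where 70 splits allow 0.0286 at the least).

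GCC-2 formed 56.3% ± 5.06 of GCC counts with AAV9-DdCBE and 64.1% ± 5.59 with AAV9-GFP, a difference of -7.77 points (exact permutation p = 0.143, adjusted 0.229, n = 4 each). Here too the GCC-2 share largely mirrors that of GCC-1 and is not a separate result. The GCC share of GCC plus TCC counts was 65.4% ± 2.01 with AAV9-DdCBE and 66.0% ± 1.91 with AAV9-GFP, a difference of -0.601 points (exact permutation p = 0.571, adjusted 0.762, n = 4 each). The balance between the anticodons therefore differed by less than the spread between hearts. The share of TCC-1 in the TCC pool differed by -0.0007 points in the MEFs and by -0.0024 points in the hearts, with an adjusted exact permutation p of 0.893 for both.

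The other glycine tRNAs were read beside these members. The nuclear tRNA-Gly-CCC total, which reads the glycine codon ending in G, was 16705 ± 480 CPM in the Cl lines (SD, n = 6) and 17164 ± 1244 CPM in Ctrl_1 (SD, n = 2), a log2 change of -0.04 (edgeR adjusted p = 0.505). In the hearts it was 7807 ± 615 CPM with AAV9-DdCBE and 8409 ± 759 CPM with AAV9-GFP (SD, n = 4 each; log2 change -0.11, edgeR adjusted p = 0.837). Unlike the total, 4 of the 5 CCC rows were tested and all 4 passed in the Cl lines, with CCC-1 lower (-0.31) and CCC-2, CCC-3 and CCC-4 higher (1.83, 1.38 and 1.04; edgeR adjusted p = 1.95e-04 to 0.00304 over the 4). Over all rows 48.3% passed in that comparison. Over all AAV9-DdCBE hearts 0 of the 4 CCC rows passed by edgeR (adjusted p = 0.0775 for CCC-2), and 0% of all rows did. In the 10X hearts the 4 rows passed by edgeR, where 51.7% of all rows did, at -0.73, 5.29, 2.31 and 2.07 for CCC-1 to CCC-4. In the single 5X heart CCC-1 to CCC-4 had log2 changes of -0.19, 2.13, 0.46 and 0.66. In the single 2X heart these were -0.01, 0.67, -0.28 and -0.04.

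Mitochondrial tRNA-Gly, which is encoded by mitochondrial DNA, had 581 ± 206 CPM in the Cl lines (SD, n = 6) and 987 ± 20.8 CPM in Ctrl_1 (SD, n = 2), which is a log2 change of -0.78 (adjusted p = 0.0527 by edgeR, SE 0.28). In Cl_3 alone it passed, at -1.12 (edgeR adjusted p = 0.0358), where 50.7% of all rows passed. On the scale of the anticodon sums it did not pass in Cl_3, at -0.94 (edgeR adjusted p = 0.0783). On that scale its change in the mean of the Cl lines was -0.65 (edgeR adjusted p = 0.0839). In the hearts it had 23595 ± 6437 CPM with AAV9-DdCBE and 22202 ± 2383 CPM with AAV9-GFP (SD, n = 4 each; log2 change 0.09, edgeR adjusted p = 0.757). On the scale of the anticodon sums, the heart change of mitochondrial tRNA-Gly was 0.35 (edgeR adjusted p = 0.837). The 15 rows named tRX-Gly with a GCC or TCC anticodon held 7 to 44 counts in all per MEF library and 4 to 18 per heart library.

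Likeness between anticodon totals was measured as the root mean square difference of log2 CPM, each total centred on its own mean over the 8 libraries of a table, against 47 other nuclear anticodons. In the MEFs the totals most like GCC were Leu-TAG (0.0888), Thr-AGT (0.0916) and Pro-TGG (0.0985), where the median anticodon lay at 0.142. Those most like TCC were Arg-ACG (0.0525), Thr-TGT (0.0595) and Ala-CGC (0.0620), with a median of 0.146. The SD of log2 CPM over the MEF libraries was 0.0890 for TCC. It was 0.117 for Arg-ACG, 0.0588 for Thr-TGT and 0.0490 for Ala-CGC. In the hearts GCC lay nearest to Phe-GAA (0.0683), Leu-TAA (0.0762) and SeC-TCA (0.0793), with a median of 0.142. The GCC total itself varied little there (SD 0.0747 of its log2 CPM over 8 hearts, and 0.0330 for Phe-GAA), so these distances do not show shared movement. TCC lay nearest to Pro-AGG (0.0781), Phe-GAA (0.0842) and Pro-CGG (0.0877), with a median of 0.166. The TCC total had an SD of 0.103 there against 0.0330 for Phe-GAA, so the distance to Phe-GAA does not show shared movement. The anticodons nearest to each total in the MEFs were other ones than those in the hearts.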

How the data were processed

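The authors deposited raw read counts per tRNA row, in 1 table for MEFs and 1 for hearts; the values were whole numbers and not normalized. Oxidation and beta-elimination of total RNA came before mim-tRNAseq library preparation, per the labels' protocols. Per the submitters' processing notes, cutadapt 3.5 and mm39 were used; no aligner or counter is given in these sources. The main test was edgeR 4.0.16 in R 4.3.3 (TMM scaling, filterByExpr with minimum count 10 and minimum total 15, glmQLFit and glmQLFTest). Rows and anticodon sums were fitted apart, and the MEF comparisons came from 1 fit of each. In the hearts 1 fit took treatment as the factor, and a separate fit split the AAV9-DdCBE hearts by X label. Benjamini-Hochberg adjustment ran over all rows or all anticodon sums, with a threshold of 0.05. SEs were taken as the log2 change over the square root of F. Intervals of shares cover counting error only. DESeq2 1.42.0, other scalings, no filter, a passage block, summed lines and each library left out were alternatives. Named rows were all members that passed the filter, both totals, the other glycine tRNAs, mitochondrial tRNA-Ala and the 3 most alike totals. Members, lists and tests were chosen with earlier results of these data known; the exchange of scaling factors was added after values were seen. The edgeR step was tested on simulated counts. Libraries differed beyond sampling noise in all 16 pairs within groups, some of which paired hearts with different X labels.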

Additional observations from a re-analysis of the deposited data

Results flagged for a closer look

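Within a group of 4 hearts, 1 value lay far from the other 3. The GCC total in AAV9-GFP mouse 14 was 16033 CPM, whereas the other AAV9-GFP hearts had 17925 to 18236 CPM. Its gap to the nearest heart, divided by the range of the group, exceeded Dixon's critical value for 4 samples. Mouse 14 also had the fewest counts of the hearts, 1540287. The rule was applied to 22 groups of values, and chance flags about 1 in 20 groups. Of the 8 tests for differences among the Cl lines, edgeR called 0.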

How the results depend on the processing

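Another scaling changed the sign or the call of several results, and the cause was not tested. On nuclear rows alone, log2 changes turned sign for GCC-3 averaged over the Cl lines (-0.047) and in Cl_2 (-0.082, and -0.00066 by DESeq2), GCC-4 in Cl_2 (-0.0016) and Cl_3 (-0.063) and GCC-2 in Cl_3 (-0.073). GCC-3 in Cl_3 turned to 0.10 with library totals and 0.15 with the factors of the anticodon sums. TCC-1 over all AAV9-DdCBE hearts turned to 0.017 (DESeq2), 0.0062 (library totals), 0.048 (nuclear rows), 0.028 (no filter) and 0.12 (factors of the anticodon sums). In the 10X hearts it turned to 0.030 (DESeq2), 0.12 (nuclear rows), 0.061 (no filter) and 0.20 (factors of the anticodon sums). With the factors of the rows, totals turned to -0.031 (GCC, Cl_3), -0.12 (GCC, all AAV9-DdCBE hearts), -0.086 (TCC, the same hearts), -0.31 (GCC, 10X) and -0.16 (TCC, 10X). With library totals they turned to -0.023 (GCC, all AAV9-DdCBE hearts), -0.20 (GCC, 10X) and -0.051 (TCC, 10X), and without the filter to -0.091 (GCC, 10X).

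By DESeq2 the GCC total averaged over the Cl lines passed (0.18). The TCC total passed there with library totals (-0.16), nuclear rows (-0.19) and the factors of the rows (-0.27), as it did in Cl_2 (-0.19, -0.22 and -0.30) and Cl_3 (-0.20, -0.21 and -0.34). With the passage number as a replicate block, edgeR called the TCC total in the mean (-0.13, adjusted p = 0.0353) and in Cl_2 (-0.17, adjusted p = 0.0427), and 2 members instead of 1 in Cl_1. The labels do not say that passage numbers pair the lines. Deviations of same-numbered libraries correlated at 0.03 to 0.25 over 6 pairs of lines, above 0.1 in 4.

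Counts of members moved too. With the factors of the anticodon sums, 1 was higher and 1 lower in the mean of the Cl lines, 1 was lower in Cl_2 and in Cl_3, and in the 10X hearts 1 was higher and 0 lower. On nuclear rows 2 were lower in Cl_1, 1 differed among the Cl lines (TCC-1, edgeR adjusted p = 0.0498), and in the 10X hearts 1 was higher and 0 lower. DESeq2, library totals and no filter left 0 lower in the 10X hearts, and summed lines left 0 lower in the mean of the Cl lines.

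Leaving out each library in turn gave 1 to 2 lower members in the mean, 1 to 2 in Cl_1, 0 to 2 in Cl_2, 1 to 2 in Cl_3 and 0 to 3 in the 10X hearts. Totals ran from 0.14 to 0.25 (GCC, mean), -0.18 to -0.10 (TCC, mean), -0.25 to -0.11 (TCC, Cl_2) and -0.032 to 0.089 (GCC, 10X), and the first 3 passed in 2 of 8 runs each. GCC-2 ran from 0.039 to 0.18 in the mean and from -0.39 to -0.15 over all AAV9-DdCBE hearts, and GCC-4 from 0.014 to 0.13 in the mean, without a call. Isodecoder changes that crossed 0 ran from -0.085 to 0.13 for GCC-3 in the mean, and for GCC-3 from -0.013 to 0.20 in Cl_1, -0.097 to 0.12 in Cl_2 and -0.14 to 0.072 in Cl_3. They ran from -0.22 to 0.25 (TCC-2, Cl_1), -0.39 to 0.0084 (TCC-2, Cl_3), -0.072 to 0.085 (GCC-2, Cl_3), -0.090 to 0.12 (GCC-4, Cl_3), -0.11 to 0.040 (TCC-1, all AAV9-DdCBE hearts) and -0.30 to 0.054 (TCC-1, 10X). Share differences ran from -1.31 to 0.0745 points (GCC of GCC plus TCC, hearts), -0.0036 to 0.0022 points (TCC-1, MEFs) and -0.0067 to 0.0022 points (TCC-1, hearts). With lines as units, 3 against 1, the share differences kept their sizes and the exact permutation p for the GCC share was 0.25, the smallest possible. GCC-1 in the mean of the Cl lines kept its direction in all 15 alternatives and its call in 14, at -0.74 to -0.54. At the depth of these tables GCC-5, GCC-6 and, in the hearts, TCC-2 could not be compared.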
